A study of Mus musculus with 16 samples.

Results

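Interferon-stimulated genes and the genes of innate RNA sensing were examined in the retina of mice from a spaceflight study. The 39 genes were chosen by name: the receptors for interferon, their kinases and Stat factors, the cytosolic sensors of foreign RNA and DNA with their adaptors, and a set of genes that interferon induces. The Irf factors were not among them. Of the 39 genes, 38 were found among the 25905 genes of the deposited table, and 37 of these had a level above 0. Ifi27 was not listed under that symbol. Ifi27l1, which RefSeq gives as another name of Ifi27, was listed at 0 with 5 transcripts.

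The 16 libraries came from the retinas of 8 spaceflight mice and of 8 ground control mice kept on Earth in the same housing hardware. Both groups were wild type C57BL/6 males, and the labels name no further allele or agent. The labels give both groups an age of 10 weeks, which by the study's methods was the age of the spaceflight mice at launch. The spaceflight mice were thus older than 10 weeks by the length of the mission when their eyes were taken after the return to Earth. The age of the ground control mice at collection is not stated in the study's methods. The retina was dissected from the right eye, total RNA was taken from it, and stranded libraries were sequenced. The levels of the members in single mice, and the difference between spaceflight and ground control, were not analysed here, because the count columns carry codes that no label ties to a mouse or group. Each level is therefore the authors' mean over both groups together, termed the mean normalized count, with no spread between mice and no test. Which neighbours in an order of levels differ beyond the spread between mice was not tested for any pair.

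Interferons are secreted proteins that warn cells of infection. Type I interferons bind a receptor of Ifnar1 and Ifnar2 and type II interferon binds Ifngr1 and Ifngr2, and kinases on the receptors, Jak1 and Tyk2 on the former and Jak1 and Jak2 on the latter, then phosphorylate Stat factors, which enter the nucleus. A complex that holds Stat2 and Irf9 binds the interferon-stimulated response element (ISRE) in the promoters of induced genes, whereas pairs of Stat factors bind the gamma-activated sequence (GAS). Upstream of this loop, the helicases RIG-I (Ddx58) and MDA5 (Ifih1) detect double-stranded RNA in the cytosol and pass the signal through Mavs to the kinases Tbk1 and Ikbke, which switch on the interferon genes. In retina this pathway is known from viral infection and from inflammation, in which microglia, Müller glia and neurons can take part.

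The promoters of 32 members were present in the reference (RefSeq, assembly GRCm38.p6, 250 bases before to 50 bases after each annotated start), and the ISRE core stood in 17 of them. The core was searched as GAAANNGAA on both strands, where N is any base, and a gene with several annotated starts was counted where any of its promoters held it. The 17 members made 53.1% of those searched (95% Wilson interval 36.4% to 69.1%, counting error only), beside 9.76% of all 27025 genes with a promoter. A match is a run of letters and not a measured site of binding. The stretches that follow are shown because 6 of the members held 2 or more cores before the start (Isg15, Ifit1, Ifit3, Bst2, Oas1a and Oas3), among 150 genes in the whole reference that did. Rsad2, the gene of viperin, and Stat2, the only member among the 4 kinases and Stat factors with a core, are shown beside them with 1 core each. All lie before the annotated start of their gene, so outside its exons. The cores are in capitals, and each sequence reads 5′ to 3′ on the strand of the gene, so that a core on the other strand reads TTCNNTTTC. Isg15 lies at chr4:156200856-156200916 on the minus strand, Bst2 at chr8:71537568-71537622 on the minus strand, and Ifit1 and Ifit3 at chr19:34640760-34640833 and chr19:34583354-34583455 on the plus strand. Oas1a and Oas3 lie at chr5:120907526-120907565 and chr5:120777700-120777754 on the minus strand, Rsad2 at chr12:26456543-26456591 on the minus strand and Stat2 at chr10:128270257-128270305 on the plus strand.
Isg15: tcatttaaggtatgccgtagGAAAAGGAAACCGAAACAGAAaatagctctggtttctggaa
Bst2: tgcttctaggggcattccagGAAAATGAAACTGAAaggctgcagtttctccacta
Ifit1: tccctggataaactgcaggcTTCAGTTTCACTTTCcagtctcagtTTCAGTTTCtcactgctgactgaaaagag
Ifit3: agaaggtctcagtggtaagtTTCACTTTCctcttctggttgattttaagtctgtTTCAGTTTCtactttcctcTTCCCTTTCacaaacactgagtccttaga
Oas1a: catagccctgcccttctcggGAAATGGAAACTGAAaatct
Oas3: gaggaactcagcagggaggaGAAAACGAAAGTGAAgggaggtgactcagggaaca
Rsad2: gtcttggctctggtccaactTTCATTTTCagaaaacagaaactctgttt
Stat2: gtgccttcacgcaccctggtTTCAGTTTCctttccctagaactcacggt

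In Isg15, Bst2, Oas1a and Oas3 the cores overlap, so that neighbouring cores share letters in 1 run, and 2 of the 3 cores of Ifit1 do so too. The run of Isg15 holds 3 cores and lies 58 to 78 bases before the start. Ifit1 holds 3 cores between 76 and 109 bases before its start and Ifit3 holds 3 between 94 and 155 bases before its own. The run of Oas1a lies closest to its start of those printed, at 6 to 20 bases, and the core of Stat2 lies farthest, at 213 to 221 bases.

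Summed over the 38 listed members, the mean normalized counts came to 4295, which was 0.0614% of the sum over all genes. Jak1, the kinase shared by the receptors of both interferon types, alone gave 34.7% of the members' sum, with a mean normalized count of 1489. The members were spread over a wide range. A mean normalized count of 100 or more was found for 11 of them, 10 to 100 for 12, 1 to 10 for 11, and less than 1 for 4 (Mx1, Ifih1, Trim21 and Stat3). Of the 32 members with 1 listed transcript, 11 reached 100 and 1, Mx1, was under 1. The listed transcripts of Mx1 and Mx2 carried no RefSeq mRNA name. Without Mx1 and Mx2, 30 members remained, and Mx1 was thus not comparable with the set that follows. Among the 16959 genes with a single listed RefSeq mRNA, 42.9% reached 100 and 28.8% were under 1. The other members under 1 had several listed transcripts and are not comparable with that set either.

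**Figure D1:**
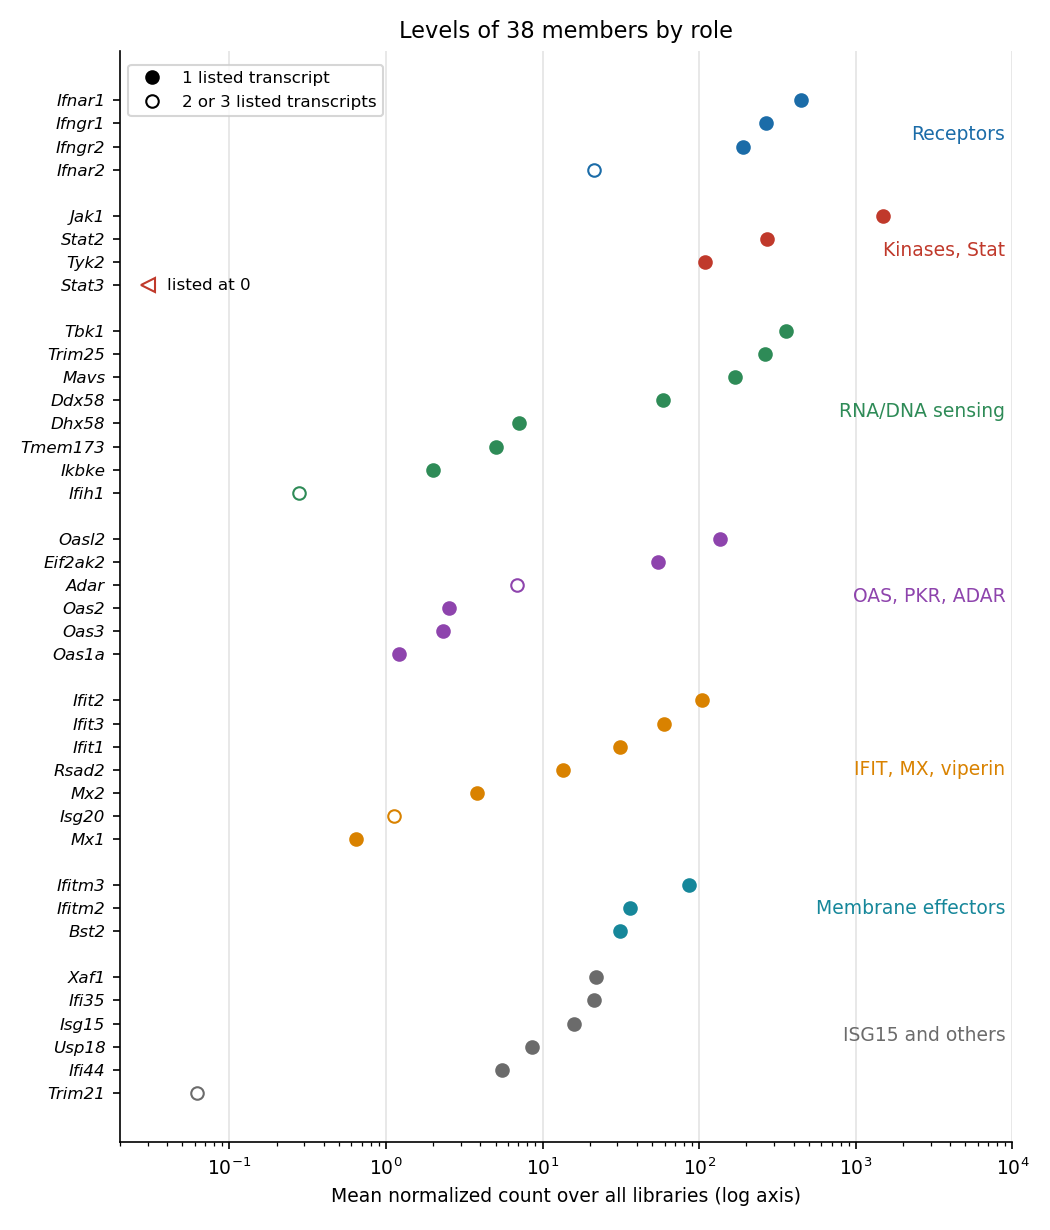
Mean normalized count over all libraries (log axis) of the 38 listed members, grouped by role, with 1 point per gene and no spread between mice. Filled points are genes with 1 listed transcript and open points those with 2 or 3. Jak1 stands highest at 1489, and Stat3 is listed at 0.

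Counts depend on transcript length, so the order of the members was taken per kilobase (kb) of the listed transcript, which could be had for 30 members with 1 listed transcript. Their median was 21.9 per kb, beside 42.8 per kb for the 13503 genes above 0 with a length. Above 42.8 per kb stood 11 members. With genes at 0 kept, the median was 20.2 per kb over the 16699 genes with 1 listed RefSeq mRNA and a length. The standing of the members thus depends on whether genes at 0 are kept. From the highest to the lowest the order began with Jak1 at 303 per kb, Ifitm3 at 127, Ifngr1 at 126, Tbk1 at 118 and Ifnar1 at 113. It ended with Oas2 at 0.656 per kb, Oas1a at 0.642, Ikbke at 0.618 and Oas3 at 0.488. The level of Jak1 was 491 times that of Ikbke on this scale. Oas2, Oas1a, Ikbke and Oas3 had counts from 1.21 to 2.54, near the floor, so this ratio and their order are uncertain. Receptors, kinases and adaptors stood among the highest members beside the induced genes Ifitm3, Ifitm2 and Oasl2. Other signalling and sensing genes (Tyk2, Ddx58, Dhx58, Tmem173 and Ikbke) stood below the median of the genes above 0.

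**Figure D2:**
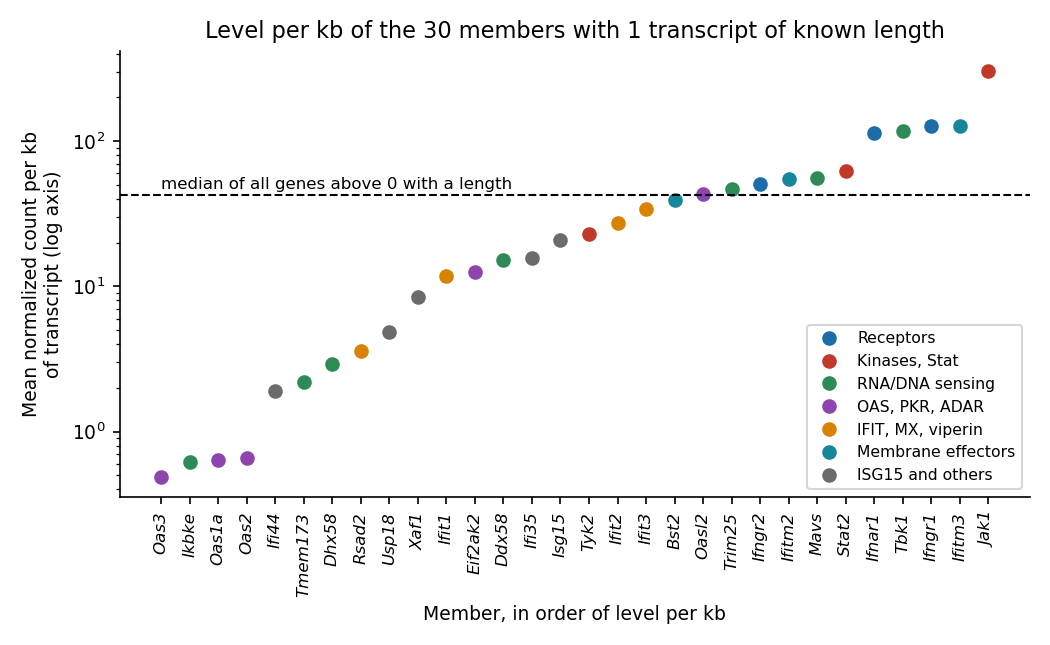
Mean normalized count per kb of transcript (log axis) for the 30 members with 1 listed transcript of known length, in order of level and coloured by role. The dashed line is the median of all 13503 genes above 0 with a length, at 42.8 per kb, and 11 members lie above it.

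The receptor genes were well represented. Ifnar1, the signalling chain of the type I receptor, had a mean normalized count of 443 and a level of 113 per kb, the 71.8th percentile of the genes with a length. For the type II receptor, the ligand-binding chain Ifngr1 had a count of 266 and 126 per kb, and the accessory chain Ifngr2 a count of 189 and 50.9 per kb. Ifnar2, the second chain of the type I receptor, had a count of 21.3, and no level per kb was computed because 2 transcripts were listed. Ifnar1 and Ifngr2 are neighbours on chromosome 16 in the reference, with Ifnar2 next to them behind Il10rb alone. The 3 receptor genes with a level per kb had a median of 113 per kb, the highest of the 7 roles.

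Among kinases and Stat factors, Tyk2, the kinase that pairs with Ifnar1, had a count of 110 and 23.0 per kb. Its partner Jak1, at 303 per kb, reached the 89.8th percentile of the genes with a length. Stat2, the subunit of the ISRE-binding complex that is particular to type I and type III signalling, had a count of 273 and 62.1 per kb. Stat3, which relays cytokine signals of the interleukin-6 family, was listed at 0 with 3 transcripts.

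Of the 8 genes of cytosolic sensing, the kinase Tbk1, the adaptor Mavs and the ubiquitin ligase Trim25 stood above the helicases Ddx58 and Dhx58. Tbk1, the kinase that phosphorylates Irf3, had a count of 356 and 118 per kb, Trim25, a ubiquitin ligase that acts with RIG-I, 263 and 47.1, and Mavs, the mitochondrial adaptor, 170 and 55.5. Ddx58, which encodes RIG-I, had a count of 59.0 and 15.2 per kb. Dhx58, the related helicase LGP2, had a count of 7.01 and 2.91 per kb. Tmem173, which encodes STING, the adaptor of DNA sensing, had a count of 5.01 and 2.18 per kb. Ikbke, the kinase most similar to Tbk1, had a count of 2.01 and 0.618 per kb. Thus the pair of related kinases stood near opposite ends of this group. Ifih1, which encodes MDA5, had a count of 0.278 with 2 listed transcripts, and is not placed in this order.

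The enzymes that respond to double-stranded RNA had widely different levels. Oas1a, Oas2 and Oas3 make 2′-5′ oligoadenylate, which activates RNase L, and had counts of 1.21, 2.54 and 2.30 and levels of 0.642, 0.656 and 0.488 per kb. Oasl2, a member of the same family, stood apart from these with a count of 136 and 43.5 per kb. Eif2ak2 encodes PKR, a kinase that stops translation, and had a count of 54.4 and 12.6 per kb. Adar, the enzyme that edits adenosine to inosine in double-stranded RNA, had a count of 6.86 with 3 listed transcripts and no level per kb. Oas2, Oas3 and Oas1a lie in 1 cluster on chromosome 5 with 5 further Oas1 genes between Oas3 and Oas1a. How reads common to such near copies were counted is not given in the sources used here, so these levels are uncertain.

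Within the IFIT, MX and viperin group the 3 Ifit genes led. Their proteins bind viral RNA and limit its translation. Ifit2 had a count of 104 and 27.2 per kb, Ifit3 59.2 and 33.9, and Ifit1 31.3 and 11.8, so the order of Ifit2 and Ifit3 differed between the scales. These 3 genes lie close together on chromosome 19 with Ifit1bl1, Ifit3b and Ifit1bl2 between Ifit3 and Ifit1, so reads from near copies make their levels uncertain too. Rsad2 had a count of 13.6 and 3.58 per kb. The dynamin-like GTPases Mx1 and Mx2, neighbours on chromosome 16 apart from Fam3b between them, had counts of 0.646 and 3.78 and no level per kb, because their listed transcripts carried no RefSeq mRNA name. Many laboratory mouse strains, C57BL/6 among them, carry a defective Mx1 gene. Isg20, an exonuclease that degrades RNA, had a count of 1.13 with 2 listed transcripts.

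The 3 membrane effectors were the highest group among the induced genes, at a median of 54.8 per kb. Ifitm3, which blocks the fusion of viruses with endosomes, had a count of 86.3 and 127 per kb, and its paralog Ifitm2 a count of 35.9 and 54.8 per kb. These genes flank Ifitm1 on chromosome 7 in the reference, and Ifitm1 had a count of 0.956 with 2 listed transcripts. Bst2, or tetherin, which holds budding virus particles at the cell surface, had a count of 31.2 and 39.4 per kb.

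In the last group, the ubiquitin-like protein gene Isg15 had a count of 15.8 and 20.9 per kb, and Usp18, which removes ISG15 from proteins and damps the type I receptor, 8.54 and 4.82. Ifi35 had a count of 21.4 and 15.7 per kb. Xaf1, which antagonises the apoptosis inhibitor XIAP, had a count of 21.8 and 8.41 per kb, and Ifi44 5.51 and 1.89. Trim21, a cytosolic antibody receptor and ubiquitin ligase, had a count of 0.0624 with 2 listed transcripts. The median of the 5 members of this group with a level was 8.41 per kb, and their counts lay between 5.51 and 21.8, so none reached the levels of the membrane effectors.

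The 6 members with several listed transcripts (Ifnar2, Adar, Isg20, Ifih1, Trim21 and Stat3) had counts from 0 to 21.3, and 3 of the 4 members under 1 were among them. The same was seen in the table at large. Genes with 1 listed RefSeq mRNA had a median count of 52.2, those with 2 a median of 1.62, those with 3 a median of 1.79 and those with 4 or more a median of 0.864. The share under 1 was 28.8% for genes with 1 and 45.1% for genes with 2 or more. The level also moved with the part of a gene's exons that belongs to 1 transcript alone. Genes with several transcripts had a median count of 0.261 where under 10% of their exonic bases were so, 2.19 at 10% to 50%, and 21.2 at 50% or more. Among the members this part was 69.4% for Ifnar2, 35.2% for Isg20, 33.9% for Ifih1, 29.7% for Stat3, 3.97% for Trim21 and 2.15% for Adar, in which 129 of 6000 exonic bases were so. Per kb of such bases, over the genes that had any, the medians were 3.20, 3.25 and 7.81. Genes with 1 transcript, those listed at 0 included, had a median of 20.2 per kb. The count medians also hold genes without such bases, so the scales were not compared. How reads that several transcripts share were counted is not given in the sources used here, and its part in these levels was not tested. A level of 0 for Stat3 is for this reason given as a listing and not as absence of the transcript.

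**Figure D3:**
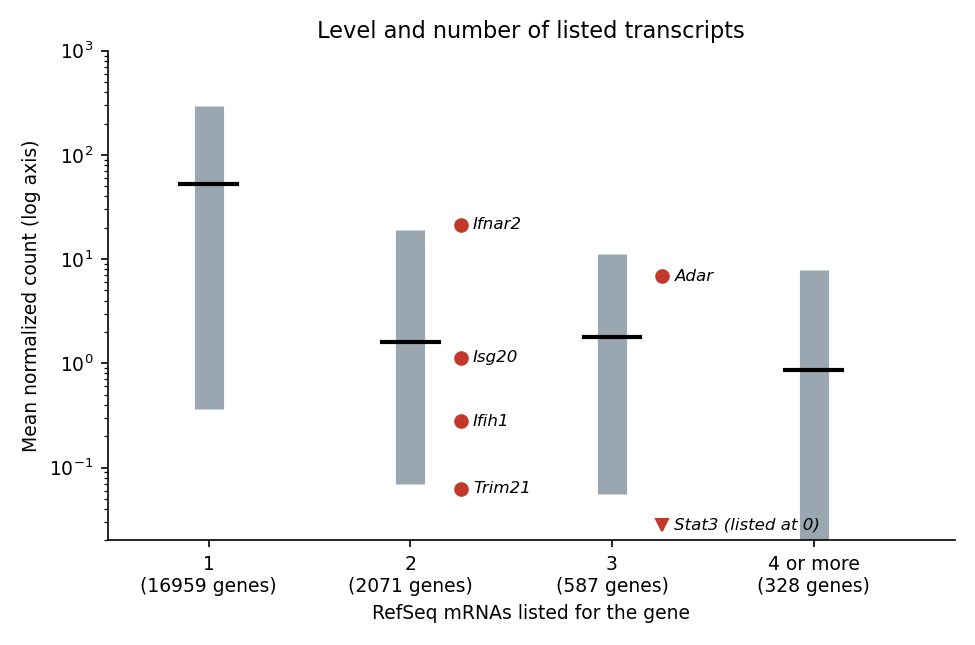
Mean normalized count (log axis) of genes by the number of RefSeq mRNAs listed for them, with grey bars from the first to the third quartile, black lines at the medians, and the 6 members with several transcripts as red points. The bar for 4 or more is cut at the foot of the axis, since its first quartile lies below it. The medians fall from 52.2 for 1 mRNA to between 0.864 and 1.79 for more, and Ifnar2 is the highest of the 6 members at 21.3.

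Among the roles, the ISRE core was found in 4 of 5 promoters of the OAS and PKR family with Adar, in 3 of 5 of the IFIT and viperin group, in 3 of 3 membrane effectors and in 3 of 5 of the Isg15 group. It was found in 3 of 6 sensing genes (Ddx58, Ifih1 and Trim25), in 1 of 4 kinases and Stat factors and in 0 of 4 receptors. With the 250 bases before the start alone, 12 members held it, 37.5%, beside 8.18% of all genes. Of these 12, 10 had a core within 150 bases of the start, 83.3%, beside 56.4% of the 2211 genes with a core before the start. The core was thus more frequent among the members than among all promoters and lay mostly near the start. The members are known interferon-induced genes in large part, so this share describes how they were chosen and is no independent result.

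The GAS core, searched as TTCNNNGAA, which reads the same on both strands, was found in 10 of the 32 promoters, 31.25%, beside 9.55% of all genes. These were Ifnar1, Ifnar2, Oas1a, Eif2ak2, Adar, Ifit2, Isg20, Bst2, Ifitm3 and Ifi35. A GAS core overlapped an ISRE core in 2 of them, Bst2 and Ifitm3. Before the start alone the GAS core was found in 6 members, 18.75%, beside 8.13% of all genes.

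**Figure D4:**
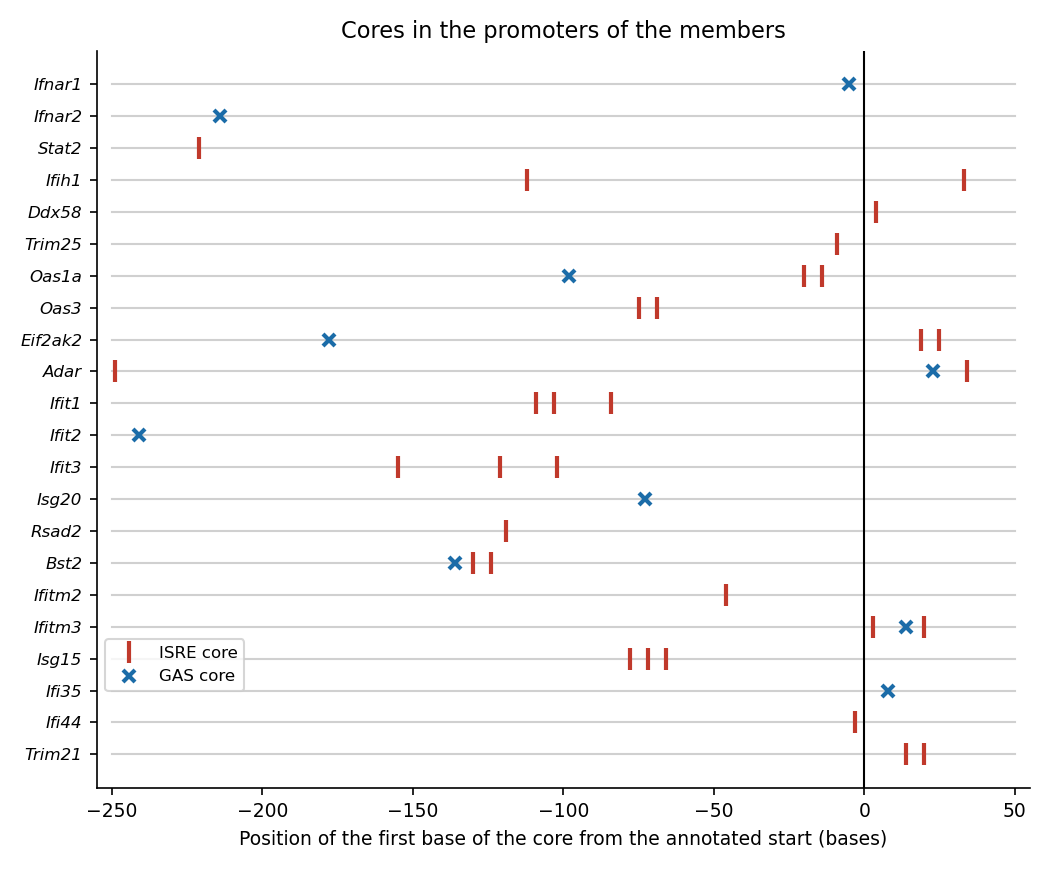
Position of each ISRE core (red bars) and GAS core (blue crosses) in the reference promoters of the members that hold 1 or more, in bases from the annotated start of the promoter that holds it (at 0), with members in order of role. The 3 cores of Isg15 lie 58 to 78 bases before the start, and those of Ifit1, Ifit3, Bst2 and Oas3 lie before it too.

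The members with an ISRE core had a lower median level than those without. The 14 with a core and a level per kb ran from 0.488 to 127 per kb with a median of 18.1, and 2 of them, Stat2 and Trim25, had a count of 100 or more. The 12 without a core ran from 0.618 to 303 per kb with a median of 47.2, and 9 of them had a count of 100 or more, among them the receptors Ifnar1, Ifngr1 and Ifngr2 and the kinases Jak1, Tyk2 and Tbk1. The ranges overlapped widely.

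Beside the members, 80 further genes of the pathway were listed by name, and 74 of them were in the table. Of these, 13 had a count of 100 or more and 20 were under 1. Among the 56 of them with 1 transcript, 8 were under 1. Over all genes, 28.8% of those with 1 listed RefSeq mRNA and 45.1% of those with 2 or more were under 1. The median of the further genes was 9.71 per kb over those with 1 transcript and a length, genes at 0 included. The highest counts included those of Pias1, an inhibitor of Stat factors, at 1198 (215 per kb), Dicer1, which cuts double-stranded RNA, at 900 (91.4 per kb), Znfx1 at 552 (76.4 per kb) and Riok3 at 511 (135 per kb). The interferon genes on this list were at or near the floor: Ifnb1, Ifna1, Ifna2, Ifna4, Ifne and Ifnk were listed at 0 with 1 transcript each, and Ifng had a count of 0.0626. How reads common to related genes, such as Ifna1, Ifna2 and Ifna4, were counted is not given in the sources used here. The 3 receptor genes with 1 transcript, Ifnar1, Ifngr1 and Ifngr2, had counts from 189 to 443 beside these. Cxcl10 and Ccl5, chemokines induced by interferon, had counts of 2.60 and 1.30, and B2m, the light chain of class I molecules, 404, which was the highest level of the list per kb, at 470.

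Most markers of rods, cones and Müller glia with 1 listed transcript stood high. Gnat1, the alpha subunit of rod transducin, had a count of 154477, the cone markers ran from 537 to 2800, and Glul of Müller glia stood at 17455. Lower counts were found for markers with 2 or 3 transcripts, the rod factor Nrl at 88.9, Rlbp1 of Müller glia at 1.39 and Rbpms of ganglion cells at 5.53. The 8 microglial markers with 1 transcript lay between 4.66 and 37.4 per kb, within the range of the members, while Itgam and Ptprc, with 2 transcripts each, were at 0 and 0.228. The 6 markers of pigment epithelium and melanocytes summed to 1108 and were uneven. Ttr stood at 540, Dct at 364 and Rpe65 at 121, but Tyr at 48.6, Mlana at 32.4 and Best1 at 2.72. The 4 lens markers summed to 1549, with Cryaa at 898, Crybb2 at 441, Crygs at 161 and Mip at 49.1. The 5 endothelial markers summed to 1578, of which Kdr alone gave 1359, and the 6 blood markers to 11.9. In whole tissue, fewer cells of a type and less RNA per cell cannot be told apart. Which cells of the retina gave the reads of the members was not tested.

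**Figure D5:**
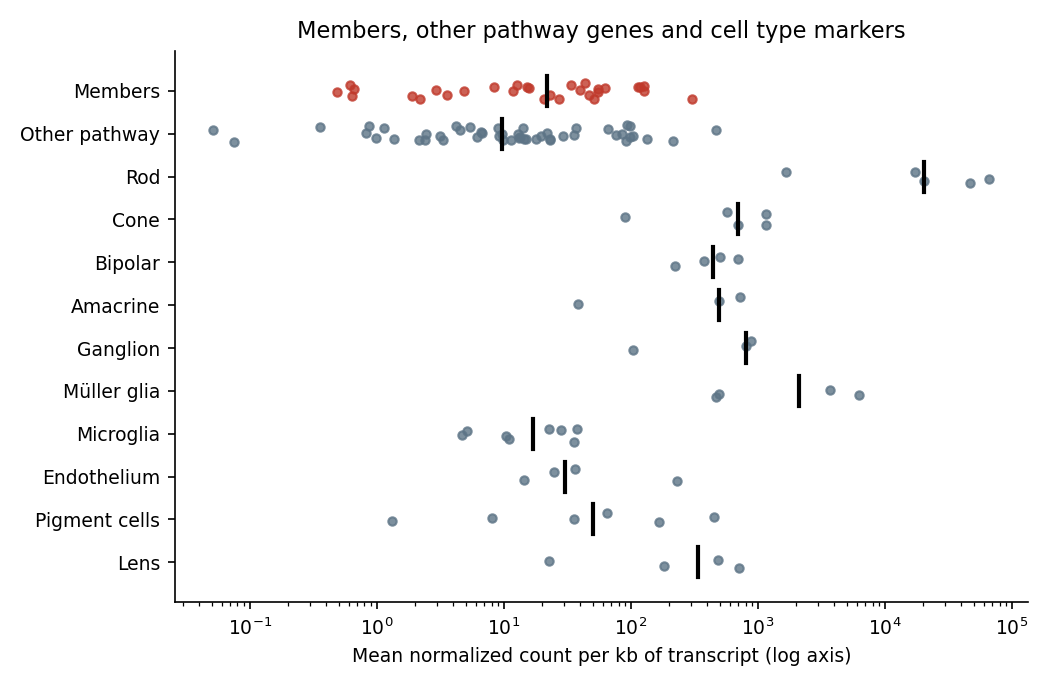
Mean normalized count per kb of transcript (log axis) of the members (red), the other pathway genes and the marker lists (grey), 1 point per gene with 1 listed transcript above 0, with black lines at the medians over these genes and those listed at 0. The members' median of 21.9 per kb lies between those of the microglial markers, at 16.8, and the endothelial markers, at 30.5, and far below that of the rod markers.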

How the data were processed

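RNA of 1 retina per mouse was sequenced by the authors in 8 spaceflight and 8 ground control mice. After trimming (Trimmomatic), the authors placed the reads on a mouse assembly older than GRCm38 with TopHat2 and counted them with HTSeq. They used DESeq2 1.22.2 in R 3.5.1, per the submitters' processing notes. The only values used are the signal column of the authors' deposited table: per gene, the mean over all libraries of read counts divided by size factors, the mean normalized count. The table's 5 other columns hold the authors' comparison of the groups and were not used. The 32 count columns of 2 further tables were not used, since their codes match no label, so depth per library and spread are not analysed here. The planned quasi-likelihood test of spaceflight against ground control could not be run for the same reason. Transcript names came from a deposited table, 98.1% of its 24866 RefSeq mRNAs had a length in the reference, and a level per kb was given to genes with 1 such mRNA. Percentiles were taken among genes above 0. Every member is accounted for by its role. Of other pathway genes those with the highest counts are named, apart from results that are not reported here, and further ones were chosen after their values were seen. The members and lists were chosen with earlier results of these data known. Motif search and length steps were tested on simulated data. Tables were handled with pandas 2.3.3 and numpy 2.4.6 under Python 3.11.15, and figures drawn with matplotlib 3.10.9.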

Additional observations from a re-analysis of the deposited data

How the results depend on the processing

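The median percentile of the listed members' mean normalized counts was 43.9 among all genes above 0. It moved to 31.3 among genes of at least 1 and to 10.8 among genes of at least 10, which drop genes below the members by construction, to 39.2 per kb, and to 43.5 among genes and members with 1 listed transcript, an alternative added after seeing the data. With the 250 bases before the start alone, the ISRE share fell from 53.1% (17 members) to 37.5% (12 members). The GAS share fell from 31.25% (10 members) to 18.75% (6 members). The counting interval does not measure such a change of window on the same genes. The alternatives planned for the comparison of the groups (another count test, another normalization, no filter on low counts, another threshold, the limma-voom fit and the replicate block) were not run. No paired analysis was possible because the count columns carry no replicate number, and no test was made. Depth and spread per library were not analysed here, so no order is read among the members with a count under 1.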

Other observations

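Beyond the members, the ISRE core was found in the promoters of 20 of 66 further pathway genes, 30.3% (95% Wilson interval 20.6% to 42.2%, counting error only), beside 9.76% of all genes. Every one of the 20 held a core before the start. The GAS core was found in 9 of the 66, 13.6%. These genes too were listed by name as genes of the pathway, with interferon-induced genes among them. Both shares therefore describe how the genes were chosen and are no independent result. Ifna2 and Ifna4, interferon genes listed at 0, held 2 ISRE cores each, and Ifna1, also listed at 0, held 1. Socs1, an inhibitor of Jak kinases with a mean normalized count of 2.74, held 2, as did the immunity-related GTPase gene Irgm1, at 32.7.

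Of the 74 further pathway genes in the table, 18 had several listed transcripts. Among the 11 genes at 0 were 5 of these 18, with Apobec3, Iigp1, Ptpn11 and Tap1 among them. The other 6, all interferon genes, were among the 56 genes with 1 transcript. Over all genes, 24.1% of those with 2 or more listed RefSeq mRNAs and 19.3% of those with 1 were at 0. Jak2, the kinase of the type II receptor, had a mean normalized count of 0.128 with 2 transcripts, beside 1489 for Jak1 with 1. Tap1 was listed at 0 with 2 transcripts, and Tap2, its partner in the peptide transporter, stood at 75.1 with 1. How reads shared between transcripts were counted was not tested. These genes were named after their values were seen.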
